A study of Mus musculus with 54 samples.

Results

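The stretch of mouse chromosome 6 around Nanog, Dppa3, Gdf3 and Apobec1 held 49 of the 113737 peaks in the merged ATAC-seq peak list. All peaks with a centre from 122550000 to 122860000 on chromosome 6 of GRCm38 were taken, whatever their width or distance from a gene, so the members were chosen by position alone. In ATAC-seq the transposase Tn5 inserts sequencing adapters where DNA is open, and a peak is a region where such insertions pile up. The libraries came from ZHBTc4 mouse embryonic stem (ES) cells, in which doxycycline (dox) turns off the Tet-regulated Pou5f1 transgene that is their source of untagged OCT4. The cells also carried mCherry-OCT4-AID, which is degraded when indole-3-acetic acid (IAA) is added, and the YPet-MD cell cycle reporter, and every group received dox. In the cell cycle set (22 samples) cells had 26 hr of dox, with 500 nM IAA for the last 2 hr or without IAA, and were sorted into EG1, LG1, S (3 replicates each) and SG2 (2 replicates). In the washout set (16 samples, 2 replicates per group) cells had 31 hr of dox, 2.5 hr with or without IAA and 4.5 hr after its removal, and were sorted into the same 4 phases. In the time course (16 samples, 2 replicates per group) unsorted cells had 34 hr of dox and no IAA or IAA for 30 min or 1, 2, 3, 4, 6 or 10 hr. The 54 samples shared 1 merged list, which gives only the position of each region. No height or count belonged to a sample, so treatments, phases and times could not be compared, there were no replicate errors, and every comparison below is a description without a test.

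Nanog encodes a homeobox transcription factor that holds ES cells in the pluripotent state, and enhancers on both sides of the gene have been described in these cells. Dppa3, also called Stella, encodes a germline and early embryo protein that guards maternal DNA methylation in the zygote. Gdf3 encodes a secreted ligand of the TGF-beta family that acts in the Nodal pathway, and Apobec1 encodes the cytidine deaminase that edits the messenger RNA of apolipoprotein B. OCT4 and SOX2 bind DNA together at a composite motif of an octamer followed by a SOX element, and the Nanog promoter carries a well-known site of this kind.

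That composite site was the only match to the OCT4::SOX2 motif within 2 mismatches in the whole 310 kb. No peak of the list analysed here covered it, and on chromosome 6 only 9 of 767 such matches (1.17%) lay in a peak. The motif was searched on both strands as ATTTGCAT followed directly by AACAATG, 15 bases in all, with up to 2 mismatches. The match lay at chr6:122707413-122707427 on the plus strand with 2 mismatches, from 76 to 62 bp upstream of the first annotated Nanog transcription start site (TSS). The next peak began 140 bp beyond it and the previous peak ended 4188 bp before it. The 250 bases upstream of that TSS are shown because they hold the site, with the match in capitals (RefSeq promoter table, GRCm38.p6, chr6:122707239-122707488, plus strand).
Nanog promoter: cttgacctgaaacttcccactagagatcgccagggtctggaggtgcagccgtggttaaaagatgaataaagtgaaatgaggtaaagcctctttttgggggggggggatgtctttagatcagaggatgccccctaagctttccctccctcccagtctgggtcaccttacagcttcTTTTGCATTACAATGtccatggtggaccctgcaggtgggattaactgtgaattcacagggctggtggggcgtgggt
Of the 4 genes, Nanog (2 entries) and Apobec1 (1 entry) were matched by symbol in this table. Both Nanog entries held the composite match and the Apobec1 entry did not, and none of these entries held a match to the OCT, SOX, KLF, ESRRB, STAT3 or CTCF motifs. Of all 32851 promoters of 300 bases in the table, 40 (0.122%) held a composite match. A match is a description of the letters and says nothing of binding.

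Peaks were dense across the neighbourhood. The 49 peaks covered 34788 bp, or 11.2% of the 310 kb, against 2.61% of chromosome 6 and 2.53% of all chromosomes. They amounted to 158 peaks per Mb, beside 45.4 on chromosome 6 and 43.0 overall. Among 7650 windows of 310 kb laid end to end on the 19 autosomes, the median was 12 peaks, the lower and upper quartiles were 6 and 20, and the highest count was 109. Only 35 of these windows (0.458%) held 49 peaks or more. On chromosome 6 alone 4 of 468 windows did, with up to 55 peaks. Counting only peaks away from TSSs, of which there were 36, 87 of the 7650 windows (1.14%) held as many.

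**Figure D1:**
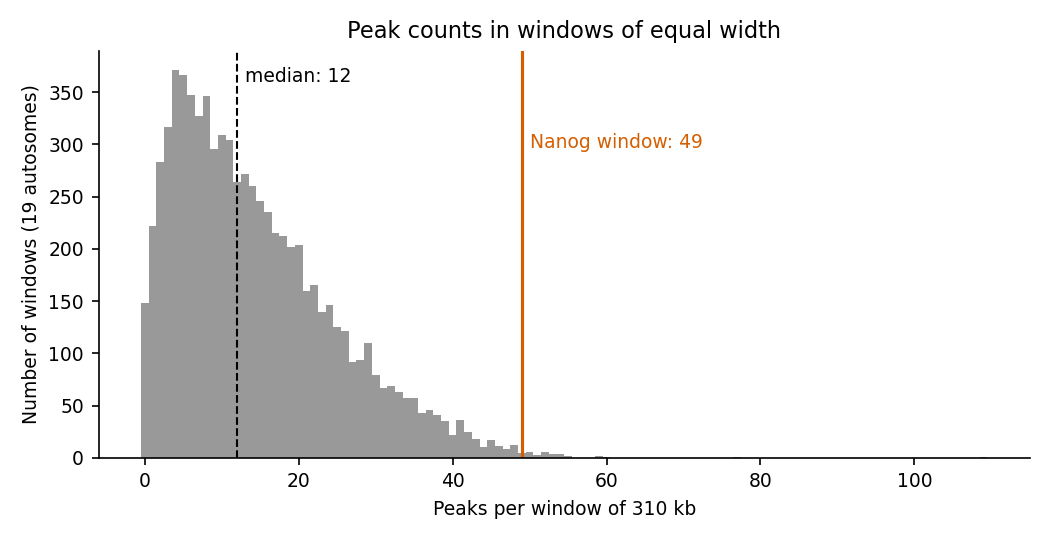
Peaks per window of 310 kb (x axis) against the number of windows on the 19 autosomes (y axis). The dashed line marks the median of 12 peaks and the orange line marks the 49 peaks around Nanog, far in the right tail.

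The peaks spread over most of the neighbourhood, with centres of neighbouring peaks from 289 to 18889.5 bp apart. Positions are given from the first Nanog TSS (122707489), negative towards lower coordinates, which is upstream of Nanog. Peaks with a centre at most 1 kb from a TSS of any GENCODE M21 transcript were taken as proximal and the others as distal. By this limit 13 peaks were proximal (26.5%, Wilson 95% interval 16.2 to 40.3%, counting error only) and 36 were distal, against 21.05% proximal in the whole list. At the base in their centre, 15 peaks were intronic, 15 intergenic and 6 exonic outside the proximal limit. Exonic peaks made up 12.2% of the members (interval 5.73 to 24.2%, from 6 peaks) and 4.37% of the peaks on chromosome 6. Intronic and intergenic peaks each made up 30.6% (interval 19.5 to 44.5%), against 34.96% and 41.5% on chromosome 6. Of the 49 peaks, 22 lay to the left of the Nanog TSS and 27 to the right.

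**Figure D2:**
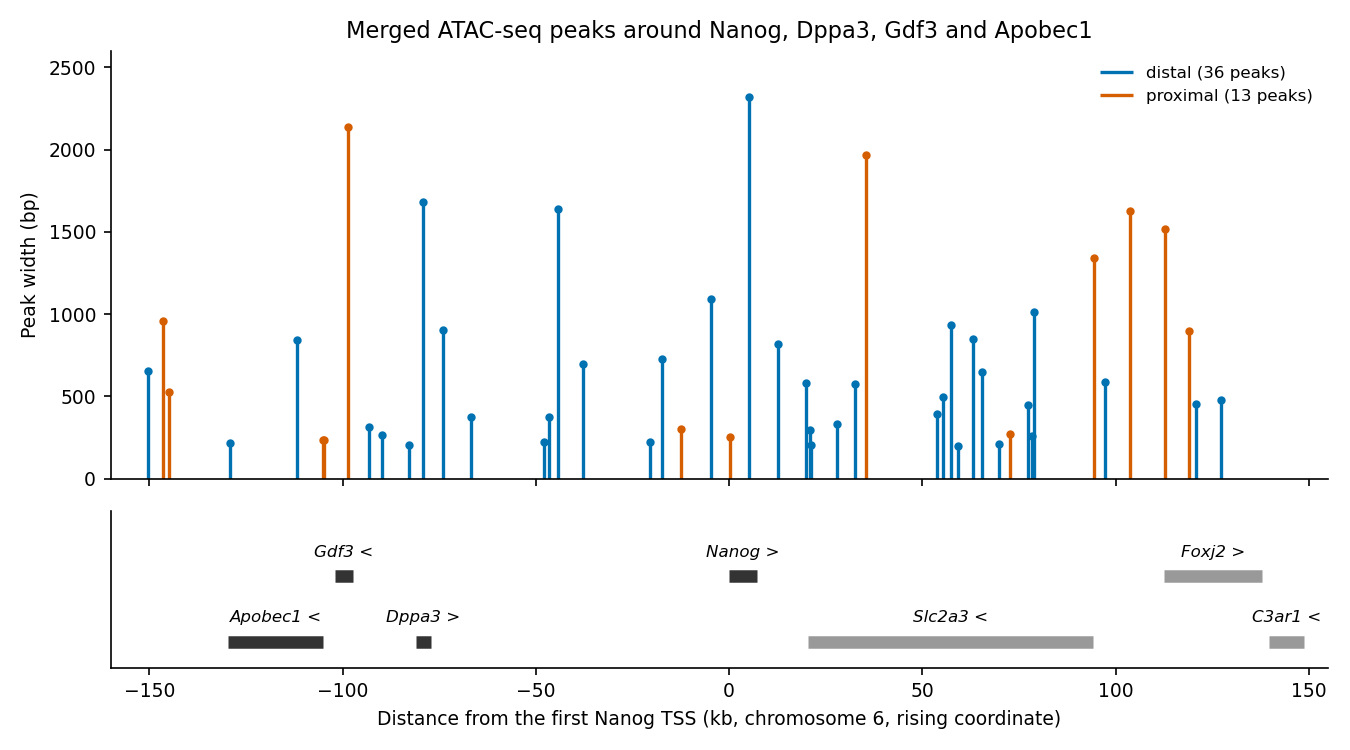
Each line is 1 of the 49 peaks, placed by the distance of its centre from the first Nanog TSS (x axis, kb) and as high as the peak is wide (y axis, bp), with distal peaks in blue and proximal peaks in orange. Gene bodies are drawn below, dark for the 4 genes and grey for Slc2a3, Foxj2 and C3ar1, with arrowheads for the direction of transcription. The widest peak, of 2318 bp, lies over Nanog, and the densest row of blue lines lies from 53.5 to 79.4 kb inside Slc2a3.

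Neighbouring peak centres were closer together than in the list as a whole. The median spacing over the 48 pairs was 4833 bp, with quartiles of 2513 and 6909 bp, against a median of 9754 bp over all neighbouring peaks. The closest pair of centres was 289 bp apart, at the Apobec1 promoter, and the farthest 18889.5 bp apart, in the stretch between Dppa3 and Nanog. In 3 places less than 200 bp parted the edges of neighbouring peaks, with gaps of 53, 101 and 45 bp.

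Widths ran from 199 to 2318 bp, with a median of 524 bp (quartiles 269 and 906 bp) against 447 bp for all peaks. The distal peaks had a median width of 486.5 bp, beside 380 bp for all distal peaks, whereas the proximal peaks had a median of 895 bp, beside 970 bp. Peaks over 1 kb numbered 10 (20.4%, 15.8% of all peaks), and 5 of these were distal (13.9% of the distal members, 7.25% of all distal peaks). The GC content had a median of 48.9%, close to the 49.1% of all peaks, and repeats made up a median of 17.3% of a peak against 11.1%. Peaks that were mostly repeat were 5 of 49 (10.2%), against 12.8% of all peaks.

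At Nanog the peaks nearest the gene avoided the first TSS. The gene has 3 annotated TSSs, at 122707489, 122707565 and 122707568, and the promoter peak (chr6:122707567-122707820) was 254 bp wide, against a median of 970 bp over all proximal peaks. Only the last TSS lay in it, while the second lay 2 bp and the first 78 bp outside its left edge. The peak therefore ran from 78 to 331 bp downstream of the first TSS, and its centre lay in a Nanog UTR.

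Wide distal peaks flanked this narrow one on both sides. The nearest upstream peak was 1094 bp wide at -4.81 kb (chr6:122702132-122703225), between genes. The nearest downstream peak was the widest of all 49, 2318 bp at 5.14 kb (chr6:122711473-122713790), and its centre fell in the Nanog coding sequence. The promoter peak and this one were the only peaks in the Nanog body of 7.15 kb and covered 2572 bp of it. Repeats made up 42.5% of the wide gene-body peak, and 22.6% of its 32-base words occurred elsewhere in the genome; the part of such sequence in the width of the peak was not tested.

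Farther upstream of Nanog, 10 peaks lay in the 77.2 kb between Dppa3 and Nanog, or 1.30 per 10 kb, beside 2.17 per 10 kb in the Slc2a3 body. The largest of them stood at -44.2 kb (chr6:122662504-122664141, 1638 bp), with a pair of narrow peaks of 223 and 377 bp at -47.8 and -46.7 kb beside it and a peak of 699 bp at -37.8 kb. Next came peaks of 222 bp at -20.5 kb, 727 bp at -17.3 kb and 302 bp at -12.5 kb. The last of these was counted as proximal because it lay 962.5 bp from a TSS of the gene model Gm10420. The remaining members of the stretch were the -4.81 kb peak and, near Dppa3, peaks of 906 and 372 bp.

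Downstream of Nanog, 2 peaks lay in the 13.2 kb before Slc2a3, of 816 bp at 12.7 kb and 583 bp at 19.8 kb. Nanog was the nearest of the 4 genes for 32 of the 49 peaks, among them all 27 on its right, where none of the others lies. Within 50 kb of its TSSs were 14 distal peaks, 7 on each side, which put it at percentile 95.8 of the 21755 protein-coding genes, with ties at mid-rank. The median gene had 4 such peaks and the upper quartile was 7. With 20 kb the count was 5 (percentile 87.2) and with 100 kb it was 31 (percentile 99.1). The wider reach takes in the peaks of the Slc2a3 body, so the rise is not particular to Nanog. With 100 kb Slc2a3 also had 31 (percentile 99.1) and Foxj2 had 23 (percentile 96.1).

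Dppa3 was the only one of the 4 genes with no TSS in a peak. Its TSSs lie at 122626410 and 122626753, and its nearest peak (chr6:122627321-122629002, 1682 bp) began 911 bp downstream of the first and 568 bp downstream of the second. That peak was centred in a Dppa3 intron and covered 43.5% of the gene body of 3.86 kb. Its centre was 1408.5 bp from a TSS, so it counted as distal. Of its 32-base words, 11.1% occurred elsewhere in the genome. Over all protein-coding genes 67.7% had a TSS in a peak, as had 3 of the 4 other Dppa genes.

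On the upstream side of Dppa3 the nearest peak was one of the narrowest in the neighbourhood, 205 bp at -82.8 kb (chr6:122624571-122624775), 1737 bp before the first TSS. To its right lay the peaks of 906 bp, at 6681.5 bp from a Dppa3 TSS, and of 372 bp, at 14042.5 bp. The latter was the least unique of the 49, with repeats over 94.6% of its length and 75.1% of its 32-base words found elsewhere. In all, 12 distal peaks lay within 50 kb of Dppa3 (percentile 92.9).

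The narrow Dppa3 peak held 2 of the 3 exact octamers found in the 49 peaks. The octamer ATTTGCAT, the element that OCT4 and its relatives bind, started at 122624637 and again at 122624681, both on the plus strand. The second also began a composite match with 3 mismatches. The peak is shown whole for this pair, with the octamers in capitals (GRCm38.p6, chr6:122624571-122624775, plus strand).
Peak at -82.8 kb: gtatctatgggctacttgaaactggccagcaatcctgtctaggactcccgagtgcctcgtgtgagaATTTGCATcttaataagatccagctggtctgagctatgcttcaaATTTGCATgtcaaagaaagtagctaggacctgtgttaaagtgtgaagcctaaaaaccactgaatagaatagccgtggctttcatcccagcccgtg
No 32-base word of this peak occurred elsewhere in the genome.

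Gdf3 had the widest promoter peak of the 4 genes. It is transcribed towards lower coordinates, from TSSs at 122610087 and 122609824, and a peak of 2135 bp (chr6:122607893-122610027) covered the second and ended 60 bp short of the first. That peak reached 2194 bp into the gene and spanned 45.6% of the 4.69 kb gene body, so, as at Nanog and Dppa3, the peak nearest the first TSS lay downstream of it and not over it. Upstream of Gdf3, towards Dppa3, lay 2 narrow distal peaks, of 314 bp at 4279.5 bp and of 264 bp at 7517.5 bp from its TSS. Repeats made up 72.7% of the latter.

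The 9 distal peaks within 50 kb of Gdf3 (percentile 83.7) were all among the 12 of Dppa3. Of the 14 around Nanog, 4 were shared with Dppa3, 1 with Gdf3 and none with Apobec1. These overlaps follow mostly from the distances between the genes, and the 50 kb around Apobec1 does not meet the 50 kb around Nanog. They therefore say little of how the peaks themselves are grouped.

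Apobec1, also transcribed towards lower coordinates, had a split promoter. A peak of 235 bp (chr6:122602203-122602437) covered 5 of its 9 TSSs, and a second peak of 237 bp (chr6:122602491-122602727) lay 53 bp beyond it on the upstream side. The first TSS, at 122602444, fell in the gap, 7 bp from the edge of the first peak. The remaining 3 TSSs, at 122600127, 122600358 and 122600438, lay inside the gene and no peak reached them. The gene body of 24.7 kb held only 2 further peaks, of 845 bp in an intron at -111.8 kb and of 219 bp in the 3' part at -129.0 kb, over a UTR. With 9 distal peaks within 50 kb Apobec1 ranked with Gdf3 (percentile 83.7).

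**Figure D3:**
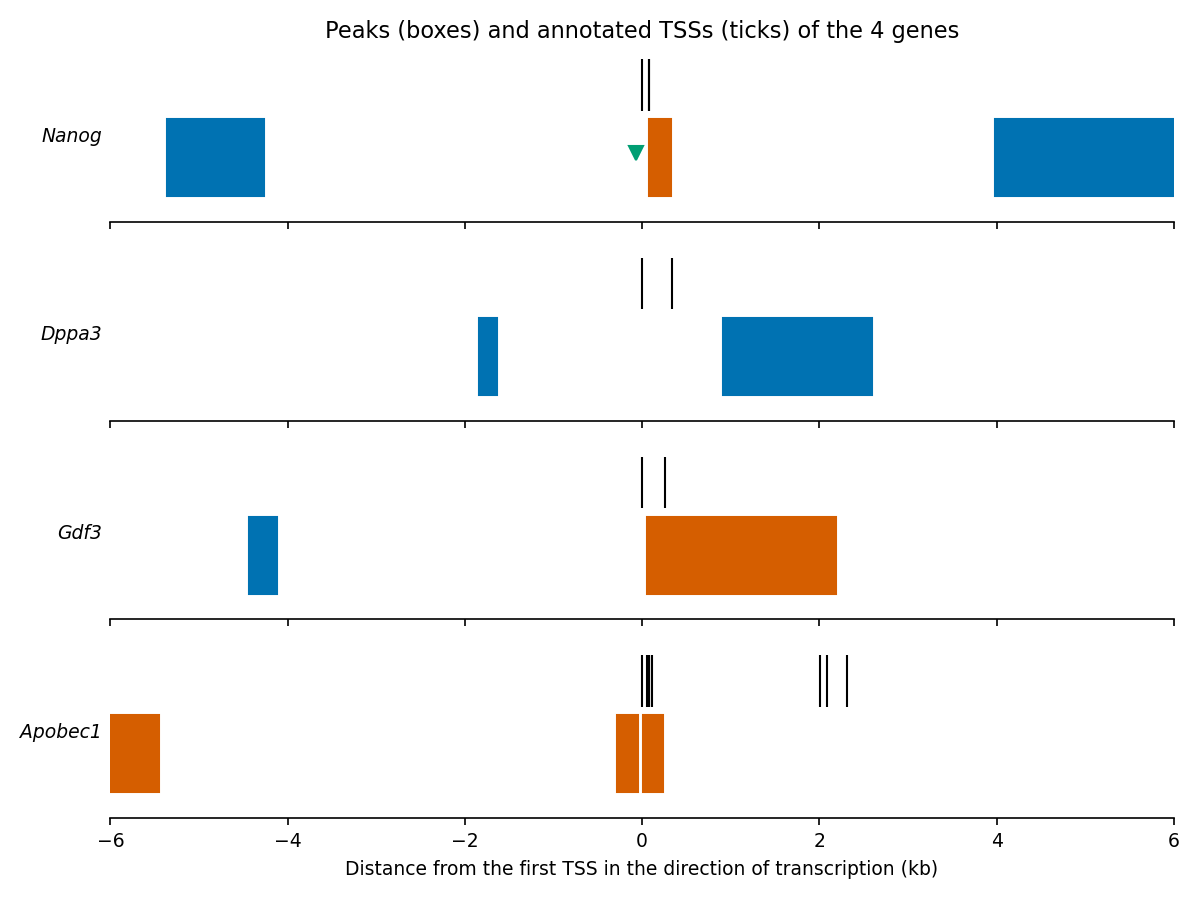
Peaks (boxes) and annotated TSSs (ticks above them) within 6 kb of the first TSS of each gene, with transcription to the right and the distance in kb on the x axis. Orange boxes are proximal and blue boxes distal peaks, and the green triangle marks the OCT4::SOX2 match of the Nanog promoter. The tick at 0 lies outside every box, 78 bp from one at Nanog, 911 bp at Dppa3, 60 bp at Gdf3 and 7 bp at Apobec1.

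Left of Apobec1 only 3 peaks remained, of 653, 958 and 524 bp at -150.3, -146.5 and -144.8 kb. They formed a group of their own at the left end of the window, since 15764.5 bp parted the centre of the last from that of the first peak over Apobec1.

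The right side of the neighbourhood was carried by Slc2a3, which encodes the glucose transporter GLUT3. Its annotated body of 73.8 kb held 16 peaks, and 7 of its 8 TSSs lay in a peak. Proximal peaks of 1968 bp at 35.4 kb, 269 bp at 72.5 kb and 1342 bp at 94.3 kb marked separate start sites. At the 3' end of the gene 3 short peaks of 295, 204 and 332 bp had their centres in exons, from 20.8 to 28.02 kb, and a peak of 573 bp lay in an intron at 32.6 kb. Slc2a3 had 23 distal peaks within 50 kb (percentile 99.4), more than any of the 4 genes. The count takes in 50 kb around each of its 8 TSSs, which are spread along the gene. More bases were therefore searched than at Nanog, whose TSSs lie close together, and the counts were not corrected for this.

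Inside Slc2a3 lay the tightest group of distal peaks. It had 10 peaks from 53.5 to 79.4 kb, all intronic, of 199 to 1011 bp. To form such groups, 3 or more distal peaks in a row were joined where the gap between their edges was less than the midpoint of 0 and 25 kb. The other run of 10 lay around Nanog itself, from -20.6 to 32.9 kb, and spanned 53.5 kb against 25.9 kb. A run of 6 lay around Dppa3 from -93.3 to -66.5 kb and a run of 4 from -47.9 to -37.5 kb. Of 10002 such runs in the list, 540 had at least 10 peaks, and the median was 4. With gaps under 5 kb the run around Nanog fell apart, while 7 of the Slc2a3 peaks stayed joined from 53.5 to 70.0 kb. Of 5115 runs formed in this way 94 had 7 peaks or more, this one included.

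Beyond Slc2a3 lay the last 6 peaks. A peak of 586 bp stood at 97.1 kb and one of 1624 bp at 103.8 kb at the TSS of the gene model Gm5112. Foxj2, which encodes a forkhead transcription factor, had peaks of 1519 and 895 bp at 112.7 and 119.0 kb near its TSSs, all 3 of which lay in a peak, and of 455 and 475 bp at 120.8 and 127.1 kb farther inside. C3ar1, which encodes the receptor for complement fragment C3a, had no peak in its body or at its TSS.

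The limits of the window fell in empty stretches. The outermost member on the left, of 653 bp, was centred 7.20 kb inside the limit and the nearest peak beyond it 16.8 kb outside. On the right the last member (chr6:122834357-122834831) was centred 25.4 kb inside and the next peak 14.5 kb outside.

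Other genes with related roles, from fixed lists, gave a scale for these counts. All 12 of the other pluripotency factors, among them Pou5f1, Sox2, Esrrb and Zfp42, had a TSS in a peak, with a median of 13 distal peaks within 50 kb and a range from 2 at Nr0b1 to 26 at Esrrb. Of these and the 4 genes, the ES cell markers Pou5f1, Sox2, Esrrb, Zfp42 and Nanog had a TSS in a peak and Dppa3 did not. At Nanog this rests on 1 of its 3 TSSs, which lay just inside the edge of the peak. All 9 genes of Nodal and GDF signalling, the pathway in which Gdf3 acts, had a TSS in a peak and a median of 8 distal peaks. The 4 other Dppa genes had a median of 12. Nanog, with 14, thus lay near the middle of the pluripotency factors, and Gdf3, with 9, within the range of 3 to 11 of its pathway.

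**Figure D4:**
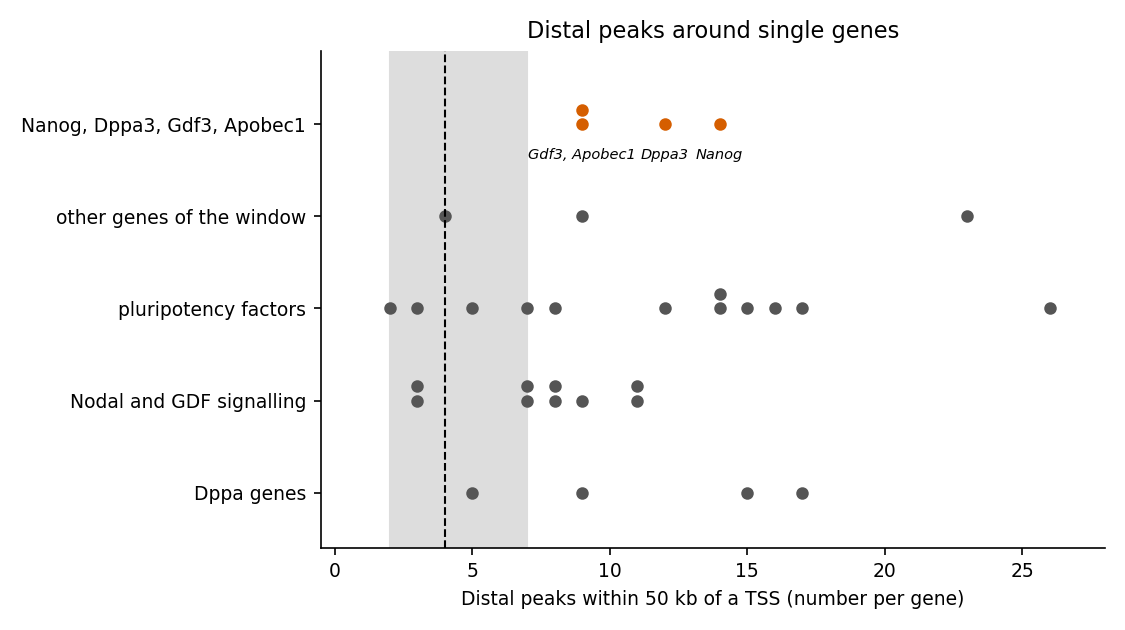
Distal peaks within 50 kb of a TSS (x axis, number per gene), 1 point per gene, by list. The dashed line marks the median of 4 over 21755 protein-coding genes and the grey band their quartiles, 2 to 7. All 4 points of the top row lie right of the band, as do Slc2a3 at 23, Foxj2 at 9 and most of the pluripotency factors. Dppa3, Gdf3 and Apobec1 share most of their peaks.

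Sequence motifs of factors known in ES cells were then matched in the 49 peaks, both strands included. The words were ATTTGCAT for OCT, CCATTGTC, CCATTGTT, CCTTTGTC or CCTTTGTT for SOX, GGGCGGGGC, GGGCGTGGC, GGGTGGGGC or GGGTGTGGC for KLF, TCAAGGTCA for ESRRB and TTCCNGGAA for STAT3. CTCF was matched with its consensus of 12 bases. The OCT word is the first part of the composite motif, and CCATTGTT shares letters with its second part, so these searches overlap.

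No peak held the composite within 2 mismatches, where 0 of 49 allows a share of up to 6.12% and 0.255% of all peaks held one. This word search is strict, and with up to 3 mismatches 2 of the 49 peaks held a match, beside 2.22% of all peaks. The paper's own motif search used another method and found the motif in many more regions. The lack of a match here therefore does not mean the lack of a site. The octamer was in 2 peaks (4.08%, 3.07% of all peaks), ESRRB in 2 (4.08%, 2.91%), STAT3 in 1 (2.04%, 2.31%) and KLF in 5 (10.2%, 13.8%). The SOX words were in 11 peaks (22.4%, interval 13.03 to 35.9%), against 12.98% of all peaks. As wide peaks hold more matches by length alone, the rates per kb of peak are the better comparison, and they were 0.345 SOX matches in the members and 0.249 in all peaks. The member rate rests on 12 matches and has an exact Poisson 95% interval of 0.178 to 0.603 per kb, which holds the rate of all peaks. The rates were 0.144 and 0.338 for KLF, 0.0862 and 0.0576 for OCT, 0.0575 and 0.0515 for ESRRB, and 0.0287 and 0.0404 for STAT3, each resting on 5 matches or fewer in the members. The 5 peaks with a KLF match were all distal, 5 of 36, where 8.90% of all distal peaks held one. This share is not corrected for width, and the distal members were wider than all distal peaks (medians of 486.5 and 380 bp). No excess of KLF among distal peaks can be read from 5 peaks. Peaks of the neighbourhood held 19.4% of the 62 SOX matches in the window and 3 of the 13 octamers (23.1%), where peaks cover 11.2% of the bases. On chromosome 6 as a whole the shares were 3.19% and 1.597%, where peaks cover 2.61% of the bases. Of the other words, peaks held 22.7% of the 22 KLF matches in the window, 13.3% of the 15 ESRRB matches and 5.88% of the 17 STAT3 matches, beside 17.6%, 6.99% and 3.59% on chromosome 6.

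**Figure D5:**
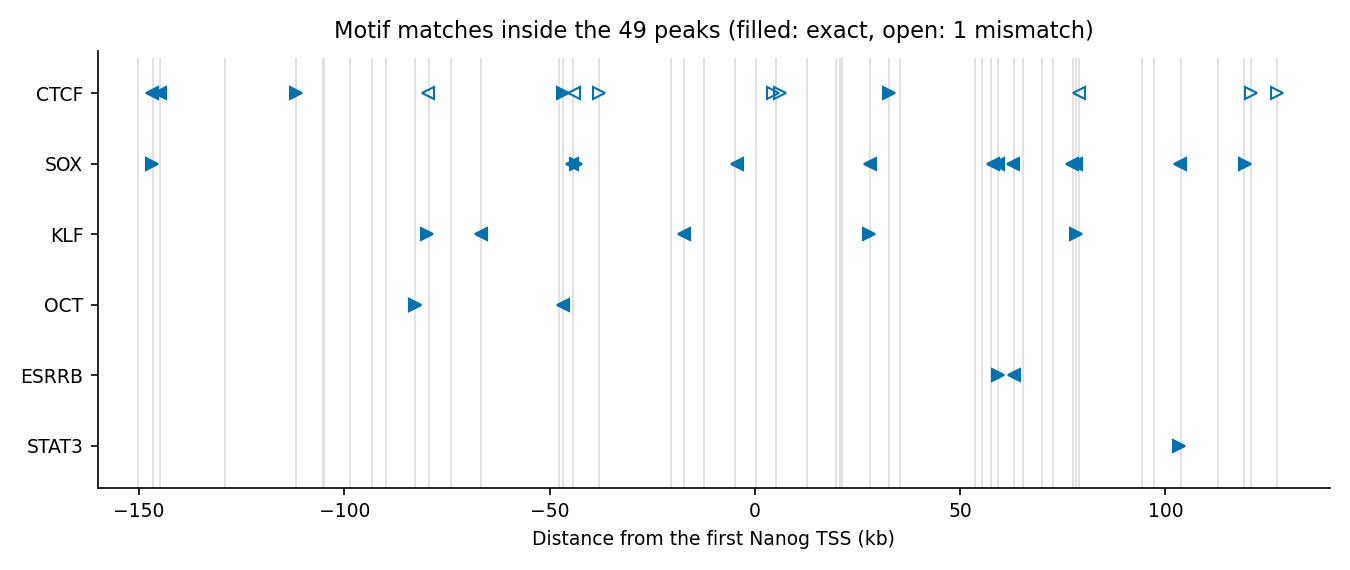
Motif matches inside the 49 peaks by distance from the first Nanog TSS (x axis, kb), 1 row per motif, with arrowheads for the strand. Filled symbols are exact, open symbols have 1 mismatch, and grey lines mark all peaks. ESRRB matches occur only in the peaks at 59.2 and 63.0 kb, each beside a SOX match, and the 5 exact CTCF matches lie from -146.8 to 32.6 kb.

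ESRRB, an orphan nuclear receptor of the pluripotency network, had its only matches in neighbouring peaks of the dense Slc2a3 group. Both peaks also held a SOX match, and no other peak paired these motifs. The peak at 59.2 kb, at 199 bp the narrowest of the 49, is shown whole, and 200 bases of the 846 bp peak at 63.0 kb are shown, with both motifs in capitals. Letters follow the plus strand of GRCm38.p6, so a match on the minus strand appears as its reverse complement (chr6:122766628-122766826 and chr6:122770394-122770593).
Peak at 59.2 kb: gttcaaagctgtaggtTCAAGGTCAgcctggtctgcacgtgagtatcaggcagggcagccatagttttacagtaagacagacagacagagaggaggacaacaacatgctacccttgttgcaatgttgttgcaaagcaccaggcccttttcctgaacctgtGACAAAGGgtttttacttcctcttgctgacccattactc
Peak at 63.0 kb: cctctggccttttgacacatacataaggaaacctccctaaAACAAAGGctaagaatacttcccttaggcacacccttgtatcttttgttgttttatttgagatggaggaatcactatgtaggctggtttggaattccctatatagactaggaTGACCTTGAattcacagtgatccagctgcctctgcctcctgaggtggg
In the first the ESRRB match starts at 122766644 and the SOX match at 122766788. In the second the SOX match starts at 122770434 and the ESRRB match at 122770546. Repeats made up 30.7% of the first peak and 17.6% of the second, and no 32-base word of either occurred elsewhere.

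The wide upstream peaks of Nanog carried SOX words and no octamer. The peak at -4.81 kb held 1 SOX match, at 122703083, and the peak at -44.2 kb held 2, at 122662876 and 122663977, with a composite match of 3 mismatches starting at 122662930. The match of the first peak and the first SOX match and the composite of the second are shown in the same way (chr6:122702986-122703185 and chr6:122662850-122662969), in capitals, while the match at 122663977 lies outside the printed stretch.
Peak at -4.81 kb: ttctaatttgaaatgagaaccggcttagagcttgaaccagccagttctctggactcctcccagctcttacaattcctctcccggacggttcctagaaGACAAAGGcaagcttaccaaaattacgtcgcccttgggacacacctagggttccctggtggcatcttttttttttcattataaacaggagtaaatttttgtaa
Peak at -44.2 kb: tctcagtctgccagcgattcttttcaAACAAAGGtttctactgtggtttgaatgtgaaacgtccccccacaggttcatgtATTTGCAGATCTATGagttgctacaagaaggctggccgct
The third octamer of the 49 peaks lay close by, in the 377 bp peak at -46.7 kb. The narrow Nanog promoter peak and the wide gene-body peak held none of the OCT, SOX, KLF, ESRRB or STAT3 words.

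CTCF, the zinc finger protein that marks the borders of chromatin loops, had exact matches in 5 peaks (10.2%, interval 4.44 to 21.8%), against 4.19% of all peaks. Of the 7 exact matches in the window 5 lay in peaks (71.4%), and of the 714 on chromosome 6 39.1% did. These were the motifs most often found in a peak, both here and over the chromosome. The matches at -146.8 and -144.8 kb lay on the minus strand, and those at -111.7 kb (Apobec1 intron), -46.8 kb (between Dppa3 and Nanog) and 32.6 kb (Slc2a3 intron) on the plus strand. The last 3 are shown on the strand of the motif with the match in capitals and 9 bases on each side.
CTCF at -111.7 kb, chr6:122595782-122595811: ttgttttagCCAGCAGAGGGCagagaaatc
CTCF at -46.8 kb, chr6:122660660-122660689: tagcatagtCCAGCAGGTGGCaggagagat
CTCF at 32.6 kb, chr6:122740127-122740156: cctaaacgtCCAGTAGGTGGCagcacagat
The match at -46.8 kb was the only one in a peak that also held an octamer. With 1 mismatch allowed, 12 peaks held a CTCF match (24.5%, 16.6% of all peaks).

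Most of the peaks could be placed without doubt about repeated sequence. In 32 of the 49 peaks no 32-base word occurred a second time on the main chromosomes, and in 6 peaks more than 10% of the words did. Beside the peaks over Nanog and Dppa3 and near Dppa3 given above, these were the peaks at -17.3 kb (14.4%), 55.3 kb (18.4%) and 77.4 kb (20.7%). How reads from such words were assigned was not given in the sources used here, and its part in the width of these peaks was not tested.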

How the data were processed

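ATAC-seq reads of dox-treated OCT4-AID cells were aligned by the authors to GRCm38 with STAR 2.6.1c, duplicates were removed with Picard, and reads off chromosomes 1 to 19, X and Y were discarded. Peaks were called with MACS2 2.1.1.20160309 on paired-end fragments and merged with BEDTools. The deposited list holds the chromosome, start and end of each region, positions in bp with no signal, and whether peaks were called per library or on pooled reads is not given in the sources used here. Depth is unknown. Merging joins overlapping regions into 1, so a width here need not be that of a single peak, and the number and width of peaks can depend on depth and on what was merged. The methods describe removal of regions over 5 kb, of those also found in input and of blacklisted ones. Of the first kind 11 remained in the list, none of them here, so the removal was not complete in it, and the other filters were not checked.

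Positions are 1-based. TSSs came from GENCODE M21, sequence from GRCm38.p6 and promoters from the RefSeq table. Groups came from GEO's labels and entered no comparison. Windows with more than 10% N were left out. Genes were ranked by the share of genes below plus the tied share at mid-rank. Genes named were the 4 genes, protein-coding genes overlapping the window and the fixed lists, of which 1 gene and 1 list are not reported here. The genes, lists and motifs were chosen with earlier results of these data known. Shares carry Wilson 95% intervals and a count of 0 an upper limit of 3 counts, for counting error only. Python 3.11.15, numpy 2.4.6, pandas 2.3.3, scipy 1.17.1, pysam 0.24.0, numba 0.67.0 and matplotlib 3.10.9 were used, and the scripts were tested on simulated data. Alternatives covered narrow and wide peaks, the proximal limit, window placement, distances around genes, mismatches and the gap that joins peaks.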

Additional observations from a re-analysis of the deposited data

How the results depend on the processing

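Of 27 alternative settings over 12 results, 25 gave a value within 1.5 times the reported one. For the 12 that are percentiles this says little, since such values lie near the top of their scale. The share of windows with as many peaks rose from 0.458% to 1.14% with distal peaks only, and the percentile ran from 87.2 (20 kb) to 99.1 (100 kb) at Nanog and from 69.1 to 86.9 at Apobec1. In the other cases the value moved. With up to 3 mismatches 2 peaks held an OCT4::SOX2 match, in place of 0 with up to 2. With gaps under 25 kb the largest run grew to 42 distal peaks, beyond the left end of the window, in place of 10. The proximal count ran from 9 within 500 bp to 18 within 2500 bp. Without replicate values no library could be left out. No paired analysis was possible because the results come from no test. The depth behind the peaks is unknown, so a stretch without a peak cannot be called closed.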
